A study of Mus musculus with 6 samples.

Results

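Triggering receptors expressed on myeloid cells (Trem) and the small adaptors that carry their signal into the cell were described in RAW 264.7 cells, a mouse macrophage-like line. The set was chosen by gene symbol and held 7 genes of the 21604 in the deposited count table: the receptors Trem1, Trem2, Trem3, Treml2 and Treml4 and the adaptors Tyrobp, also called DAP12, and Hcst, also called DAP10. All 7 were found in the table and all 7 passed the filter on low counts that left 13014 genes for testing. The LPS group, 3 libraries, came from cells exposed for 24 h to 100 ng/mL lipopolysaccharide (LPS), the outer membrane molecule of Gram-negative bacteria that Toll-like receptor 4 recognises. The PE-CUR group, also 3 libraries, received that dose of LPS and 2 mg/mL PE-CUR over the same 24 h. All samples are labelled wild type, and the title of the series describes curcumin-loaded Pickering emulsions, which are oil droplets held stable by solid particles and here loaded with a plant polyphenol. Every cell received LPS, and the groups analysed here include no cells without LPS, with emulsion alone or with curcumin alone. The line comes from a virus-induced mouse tumour, although the labels also call it a bone marrow macrophage. Separate cultures are not named for the replicates, so the p-values describe the spread between these libraries, which may be technical. In such bulk RNA, fewer cells with a transcript and less of it per cell cannot be told apart.

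Receptors of the Trem family are membrane proteins with a single immunoglobulin-like domain, and several of them have a short tail and signal through a partner. TREM1, TREM2, TREM3 and TREML4 pair through charged residues in the membrane with DAP12, whose tail carries an immunoreceptor tyrosine-based activation motif (ITAM) that recruits the kinase SYK once Src family kinases have phosphorylated it. DAP10 carries a different tyrosine motif, which recruits phosphatidylinositol 3-kinase, and can join the same receptor complexes. TREM1 is known for amplifying responses to Toll-like receptor ligands such as LPS. TREM2 binds lipids and lipoproteins, supports phagocytosis and survival of macrophages and microglia, and together with DAP12 is needed for normal osteoclast formation.

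The receptor genes lie side by side on mouse chromosome 17 and the adaptor genes lie side by side on chromosome 7 (positions from RefSeq on GRCm38.p6, which is the mm10 build that the submitters' processing notes name). The cluster held 7 receptor genes in the order Trem1, Trem3, Treml4, Treml2, Treml6, Trem2 and Treml1, all 7 on the plus strand, over 134.5 kb. Trem1 spans 48232713 to 48246927, Trem3 48247677 to 48258848, Treml4 48264200 to 48275607, Treml2 48299390 to 48312534 and Trem2 48346401 to 48352276. Tyrobp (30413782 to 30417582, plus strand) and Hcst (30417712 to 30419854, minus strand) point towards each other and their ends are 129 bases apart. All 7 are protein coding. Of the 7, only Trem1 overlaps another annotated gene (GENCODE M21), a processed pseudogene on the opposite strand.

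The bases before the annotated starts are shown for Trem2, Trem1, Treml4 and Hcst, so that the start regions of 3 receptors that fell can be read beside that of an adaptor that did not pass the test. RefSeq promoter sequences of GRCm38.p6 were found for 4 of the 7 members. Each is printed 5′ to 3′ on the strand of the gene, begins 250 bases before the start given in the promoter table and ends before the first base of the RefSeq gene. Capitals mark matches on either strand to 6 searched motifs, which were AGGAAG (PU.1-type, for the myeloid factor encoded by Spi1), TGANTCA (AP-1), TTGCNNAA (C/EBP), CACGTG and CATGTG (E-boxes) and TGACNNNGC (antioxidant response element).
Trem2 (chr17:48346151-48346400, plus strand): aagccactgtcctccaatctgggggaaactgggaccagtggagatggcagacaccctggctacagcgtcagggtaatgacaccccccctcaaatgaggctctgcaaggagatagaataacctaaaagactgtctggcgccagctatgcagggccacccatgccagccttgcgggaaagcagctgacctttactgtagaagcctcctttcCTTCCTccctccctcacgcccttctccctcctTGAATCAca
Trem1 (chr17:48232489-48232712, plus strand): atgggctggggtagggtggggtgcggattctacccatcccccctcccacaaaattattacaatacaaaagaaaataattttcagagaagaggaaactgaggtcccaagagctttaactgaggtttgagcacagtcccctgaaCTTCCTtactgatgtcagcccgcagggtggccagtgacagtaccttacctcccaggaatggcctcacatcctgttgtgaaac
Treml4 (chr17:48264045-48264199, plus strand): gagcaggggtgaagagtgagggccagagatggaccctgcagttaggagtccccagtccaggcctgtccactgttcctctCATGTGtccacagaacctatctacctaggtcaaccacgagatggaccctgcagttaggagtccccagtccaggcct
Hcst (chr7:30419855-30420104, minus strand): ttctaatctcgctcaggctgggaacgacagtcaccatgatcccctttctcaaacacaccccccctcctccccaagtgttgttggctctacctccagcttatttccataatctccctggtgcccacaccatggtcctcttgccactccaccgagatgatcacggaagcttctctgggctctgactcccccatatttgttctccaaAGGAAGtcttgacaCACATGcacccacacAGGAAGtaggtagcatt

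Positions are counted back from the start in the promoter table, which for Trem1 and Treml4 lies inside the RefSeq gene, and a match is given by its base farthest from it. The Trem2 window held 1 AP-1 match at -9, a motif found in 6.75% of 32851 mouse promoter windows of that length, and 1 PU.1-type match at -41, found in 29.5%. The Trem1 window of 224 bases held 1 PU.1-type match at -108 (26.5% of windows) and the Treml4 window of 155 bases 1 CATGTG match at -171 (8.21%). The Hcst window held PU.1-type matches at -46 and -17 and a CATGTG match at -32 (12.3%). The PU.1-type motif stood in 2 of the 3 receptor windows, those of Trem2 and Trem1, and none of the 6 stood in all 3. These are letters in a window, not measured binding sites.

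Total counts were 28530750 to 35276533 per library, so that 1 CPM, the count scaled to a common library total, stood for 28.5 to 35.3 counts. Genes with any count numbered 18210 to 18451 in the LPS libraries and 16701 to 17002 in the PE-CUR libraries. Libraries of a group correlated at 0.985 or more and libraries of different groups at 0.955 or less (Pearson correlation of log2 CPM across genes, which are not independent replicates). Of the 10 macrophage markers 9 had a mean of at least 1 CPM, and their summed level was 10710 to 11350 CPM in LPS and 8781 to 9857 CPM with PE-CUR. Within that list Adgre1, Itgam, Lyz2, Fcgr3 and Mertk fell, Csf1r and Cd14 rose, and the other 3 did not pass. Markers of T and NK cells, the usual setting of Hcst, summed to 0.625 to 0.896 CPM in LPS and 0.170 to 0.341 CPM with PE-CUR (3 of 8 markers listed). Platelet markers, the usual setting of Treml1, summed to 2.91 to 4.51 CPM in LPS and 0.666 to 1.43 CPM with PE-CUR (5 of 5 listed). B cell markers (4 of 5 listed) summed to 1.05 to 1.09 CPM in LPS and 0.421 to 0.682 CPM with PE-CUR. Dendritic cell markers (5 of 6 listed) summed to 1.205 to 1.531 and 0.795 to 1.085 CPM. Microglia markers (170.4 to 203.9 and 170.2 to 222.4 CPM) and fibroblast and epithelium markers (1.28 to 1.67 and 1.09 to 12.35 CPM) overlapped between the groups. Osteoclast markers (6 of 7 listed) summed to 82.6 to 109.5 CPM in LPS and 21.5 to 22.7 CPM with PE-CUR. Most of that difference lay in Itgb3 (50.3 to 62.65 CPM in LPS, 8.68 to 9.88 CPM with PE-CUR) and Atp6v0d2 (19.8 to 32.7 and 0.248 to 1.05 CPM). Acp5 stood at 11.3 to 12.9 and 8.86 to 10.6 CPM, while Mmp9 was higher with PE-CUR (0.402 to 0.594 and 2.31 to 2.79 CPM). Ctsk and Ocstamp stayed under 1 CPM. Hepatocyte transcripts summed to 44.4 to 60.2 CPM in the 3 LPS libraries and reached 74.1 CPM with PE-CUR replicate 3, against 0.0284 CPM in the lowest library of that group. Their part in the results was not tested.

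Of the 7 genes 4 fell, 0 rose and 3 did not pass the test. The test was edgeR's quasi-likelihood test, with a Benjamini-Hochberg adjusted p under 0.05 over all genes tested. Across all genes tested 63.4% passed, 30.8% as higher and 32.7% as lower. The share of members that passed is thus near the background. A fall of at least 2-fold was called for Trem1, Treml2 and Treml4, and for 11.5% of all genes tested. A rise of at least 2-fold was called for 0 members and for 6.37% of genes tested. Group values were fully apart in 4 members, all 4 lower with PE-CUR, while this held in either direction for 69% of genes tested and for 35.7% as lower. The median log2 fold change of all genes tested was -0.03. Levels given in CPM are scaled by the trimmed mean of M values (TMM). Exceptions are the cell type marker levels above and the library values of Apoa1 below, which are scaled by library total alone.

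**Figure D1:**
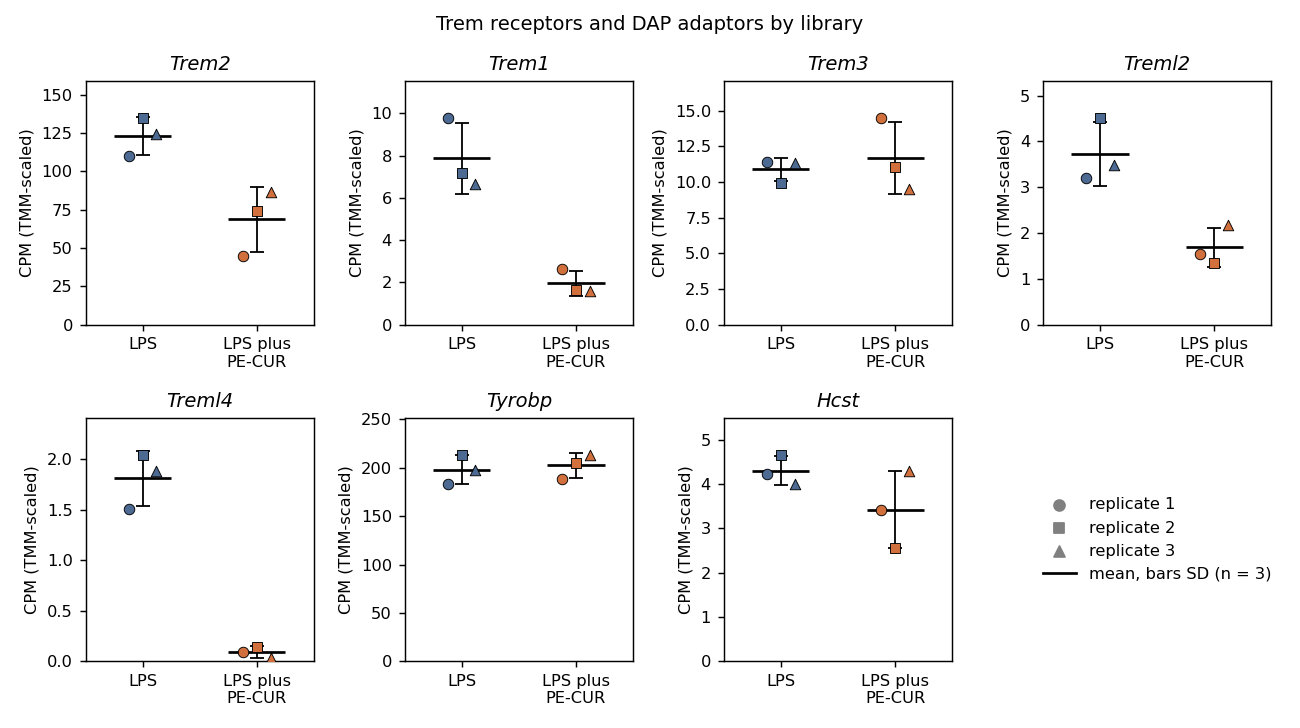
TMM-scaled CPM (y axes from 0, each with its own range) of the 7 genes in each library, with 3 LPS and 3 PE-CUR libraries. Points are libraries, shaped by replicate number, and the line and bars are the mean ± SD (n = 3). Trem1, Trem2, Treml2 and Treml4 lie lower with PE-CUR without overlap, and Trem3, Tyrobp and Hcst overlap.

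Levels of different genes were compared per length, in the deposited FPKM, which divides by gene length and library total. In LPS the order was Tyrobp (351 ± 25.7 FPKM, mean ± SD, n = 3), Trem2 (109.5 ± 10.9), Trem3 (9.98 ± 0.780), Hcst (9.92 ± 0.712), Trem1 (2.22 ± 0.466), Treml4 (0.883 ± 0.134) and Treml2 (0.803 ± 0.146). Trem3 and Hcst overlapped in that order, as did Treml4 and Treml2, and all other neighbours were apart. Tyrobp stood at or above 98.9% and Trem2 at or above 96% of all tested genes by mean FPKM in LPS, whereas Treml2 stood at 17.9%. With PE-CUR the order was Tyrobp (345 ± 14.7 FPKM), Trem2 (58.5 ± 17.3), Trem3 (10.3 ± 2.48), Hcst (7.60 ± 1.93), Trem1 (0.533 ± 0.1785), Treml2 (0.3495 ± 0.08635) and Treml4 (0.0431 ± 0.0256). Trem3 and Hcst overlapped again, as did Trem1 and Treml2. In these levels Treml4 moved from beside Treml2 to the lowest place.

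Trem2, the lipid-sensing receptor, was by far the most abundant receptor of the set in both groups and fell 1.79-fold. It measured 110.0, 134.6 and 124.6 CPM in the LPS libraries, by replicate number, and 45.0, 74.2 and 86.8 CPM in the PE-CUR libraries. The groups did not overlap, and PE-CUR replicate 1 lay well under the others of its group. The log2 fold change was -0.84 (SE 0.27, by edgeR, adjusted p = 0.0437), close to the threshold. The call ended with median-ratio scaling (by edgeR, adjusted p = 0.0516), with no filter on low counts (0.114), and when LPS replicate 1, 2 or 3 or PE-CUR replicate 2 was left out (by edgeR, adjusted p from 0.0756 to 0.134). Without PE-CUR replicate 1 the log2 fold change shrank to -0.58 and the spread narrowed, so that it passed (by edgeR, adjusted p = 7.24e-04).

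Trem1, the amplifier of Toll-like receptor responses, fell 4.01-fold. It measured 9.77, 7.16 and 6.66 CPM in the LPS libraries, by replicate number, and 2.65, 1.62 and 1.59 CPM in the PE-CUR libraries. Every LPS library lay above every library with PE-CUR, and replicate 1 was the highest of each group. The log2 fold change was -2.003 (SE 0.234, by edgeR, adjusted p = 2.71e-05). Of all genes tested 4.36% had a lower log2 fold change.

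Treml4, a receptor that binds dying cells, fell most in the set. It was counted 49, 67 and 68 times in the LPS libraries, by replicate number, and 3, 5 and 1 times in the PE-CUR libraries. The counts of the groups are far apart, but 9 counts in all stand behind the lower level. The pooled counts per total were 19.7 times as high in LPS (exact 95% interval 10.2 to 43.8, covering counting error only). The fitted log2 fold change was -4.20 (SE 0.43, by edgeR, adjusted p = 9.81e-06), and 0.546% of genes tested had a lower one. Treml4 passed the filter on low counts only through its LPS libraries, so this p-value and this rank carry that selection.

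Treml2, a receptor of macrophages and B cells that is not known to pair with DAP12, fell 2.22-fold. It measured 3.19, 4.51 and 3.48 CPM in the LPS libraries, by replicate number, and 1.54, 1.35 and 2.17 CPM in the PE-CUR libraries. The groups did not overlap. The log2 fold change was -1.15 (SE 0.24, by edgeR, adjusted p = 0.00152).

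Trem3, which couples to DAP12 in mice and whose human counterpart is a pseudogene, did not pass. It measured 11.4, 9.96 and 11.4 CPM in the LPS libraries, by replicate number, and 14.5, 11.04 and 9.54 CPM in the PE-CUR libraries. The groups overlapped, with the highest and the lowest value of all 6 libraries both with PE-CUR. The log2 fold change was 0.10 (SE 0.15, by edgeR, adjusted p = 0.575) and became -0.05 without PE-CUR replicate 1. Trem3 lies between Trem1 and Treml4, 749 bases from the end of the first and 5351 bases from the start of the other. Per library, the Trem3 FPKM was 3.77 to 5.53 times that of Trem1 in LPS and 17.7 to 22.1 times with PE-CUR, without overlap.

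**Figure D2:**
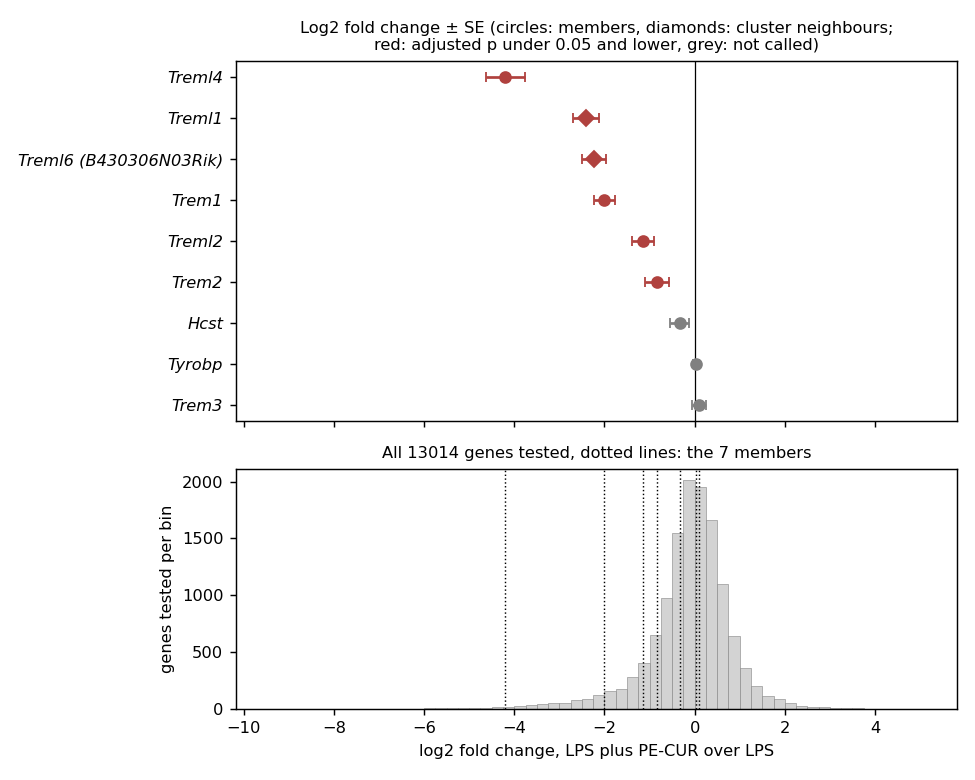
Log2 fold change of PE-CUR over LPS (x axis) with its SE for the 7 members and 2 further genes of the cluster (upper panel), above the distribution of the same value over all 13014 genes tested (lower panel, genes per bin of 0.25). Treml4 and Trem1 lie in the lower tail, and Tyrobp and Trem3 lie near 0.

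The other receptor genes of the cluster were read beside the members. Treml1, known as a receptor of platelets, fell from 2.92 ± 0.396 to 0.554 ± 0.179 CPM (log2 fold change -2.41, by edgeR, adjusted p = 2.88e-05). The platelet markers were lower in the same libraries, as were the B cell and dendritic cell markers. The part of the platelet markers in this result was not tested. Treml6, listed in the table as B430306N03Rik, fell from 3.46 ± 0.430 to 0.738 ± 0.187 CPM (log2 fold change -2.23, by edgeR, adjusted p = 2.55e-05). In both genes the groups did not overlap. Thus 6 of the 7 receptor genes of the cluster passed as lower, beside 32.7% of all genes tested, and Trem3 did not pass. That share is over genes of all levels, whereas Treml4, Treml1, Treml6 and Treml2 had means of 1.81 to 3.73 CPM in LPS. Fewer genes had any count with PE-CUR, and the share among genes of like level was not computed. For Trem2 among the 6, the call held in 11 of 17 alternative fits. Beyond Treml1 lie Nfya, a subunit of a CCAAT-binding transcription factor, and Oard1, an enzyme that removes ADP-ribose, which were chosen for their position after their values were seen. Nfya (48386885 to 48409820, minus strand) rose from 80.0 ± 2.45 to 109.7 ± 2.53 CPM (log2 fold change 0.46, by edgeR, adjusted p = 3.81e-05). Oard1 stood at 16.0 ± 0.282 CPM in LPS and 14.9 ± 0.659 CPM with PE-CUR and did not pass (by edgeR, adjusted p = 0.304).

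**Figure D3:**
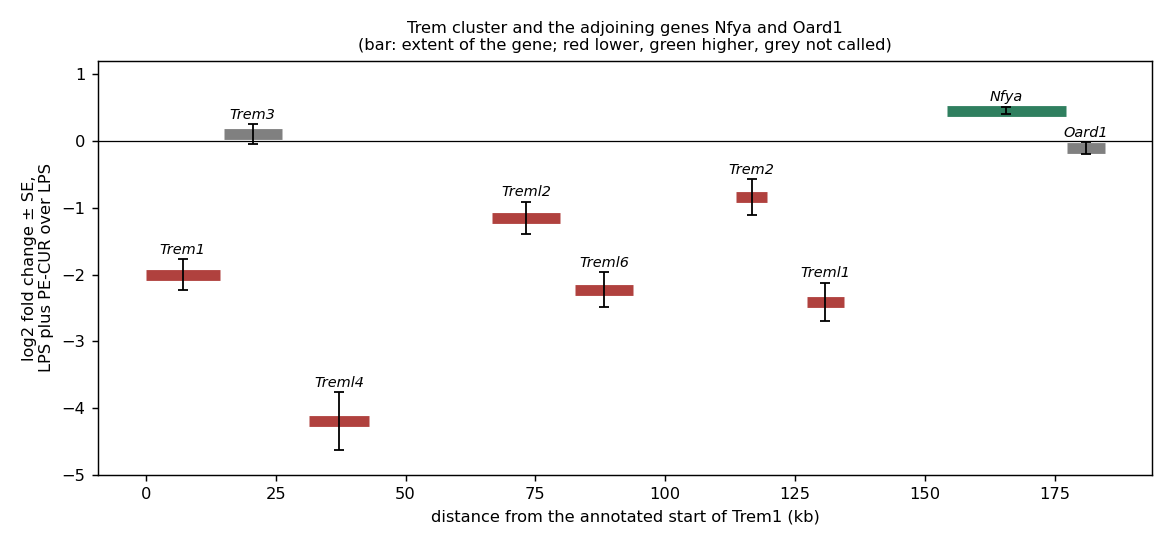
Log2 fold change of PE-CUR over LPS (y axis, bars SE) against the distance from the start of Trem1 in kb (x axis) for the 7 receptor genes of the cluster and the adjoining Nfya and Oard1. The coloured bar spans each gene. Trem3 and Oard1 are grey (not called) and Nfya is green (higher), beside 30.8% of all genes tested called higher and 32.7% lower. Trem2 is drawn as lower at an adjusted p of 0.0437 from edgeR, a call that held in 11 of 17 alternative fits.

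Tyrobp, the adaptor of most Trem receptors, did not pass. It measured 183, 213 and 198 CPM in the LPS libraries, by replicate number, and 189, 205 and 213 CPM in the PE-CUR libraries. The groups overlapped almost fully and the spread was small, with a coefficient of variation of 7.48% in LPS and 6.23% with PE-CUR. The log2 fold change was 0.03 (SE 0.07, by edgeR, adjusted p = 0.714), and its sign turned in 5 of 17 alternative fits without passing in any. Fcer1g, the related ITAM adaptor of Fc receptors, stood at 217 and 211 CPM and did not pass (by edgeR, adjusted p = 0.659).

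Hcst, the adaptor that recruits phosphatidylinositol 3-kinase and is best known as the partner of NKG2D, did not pass. It measured 4.24, 4.66 and 4.01 CPM in the LPS libraries, by replicate number, and 3.42, 2.56 and 4.30 CPM in the PE-CUR libraries. The groups overlapped through PE-CUR replicate 3. The log2 fold change was -0.33 (SE 0.20, by edgeR, adjusted p = 0.175). Nfkbid, which codes for a nuclear inhibitor of the IkB family and starts 1876 bases beyond Hcst, was named for its position after its values were seen. It rose from 9.84 ± 1.24 to 40.4 ± 1.35 CPM (log2 fold change 2.04, by edgeR, adjusted p = 8.26e-08).

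The balance between members was measured within each library, where the scaling of libraries has no part. The summed FPKM of the 5 receptors, divided by that of Tyrobp, was 0.346, 0.352 and 0.356 in the LPS libraries, by replicate number, and 0.163, 0.211 and 0.230 in the PE-CUR libraries. The means were 0.3515 ± 0.00493 and 0.201 ± 0.0346, and the groups did not overlap (exact two-sided permutation p = 0.1, the smallest that 3 against 3 libraries can give). Trem2 made up 87.0% to 90.1% of the summed receptor FPKM in LPS and 73.6% to 88.9% with PE-CUR, so this ratio mainly follows Trem2. The lowest share was that of PE-CUR replicate 1.

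The log2 ratio of Trem1 to Trem2 counts was -3.49, -4.23 and -4.23 in the LPS libraries, by replicate number, and -4.09, -5.52 and -5.77 in the PE-CUR libraries. PE-CUR replicate 1 lay inside the range of the LPS group, so the groups overlapped, with a mean difference of -1.14 (exact two-sided permutation p = 0.3). Without it the difference was -1.66 and the groups were apart (exact permutation p = 0.1). PE-CUR replicate 1 had the highest Trem1 and the lowest Trem2 of its group. The log2 ratio of Hcst to Tyrobp counts was -5.43, -5.51 and -5.62 in LPS and -5.79, -6.33 and -5.63 with PE-CUR. The groups were apart by a very small margin, with a mean difference of -0.39 (exact two-sided permutation p = 0.1, the smallest possible). Without PE-CUR replicate 2 the difference was -0.185 (exact permutation p = 0.2). With 3 against 3 libraries none of these 3 ratios could reach a p under 0.05.

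**Figure D4:**
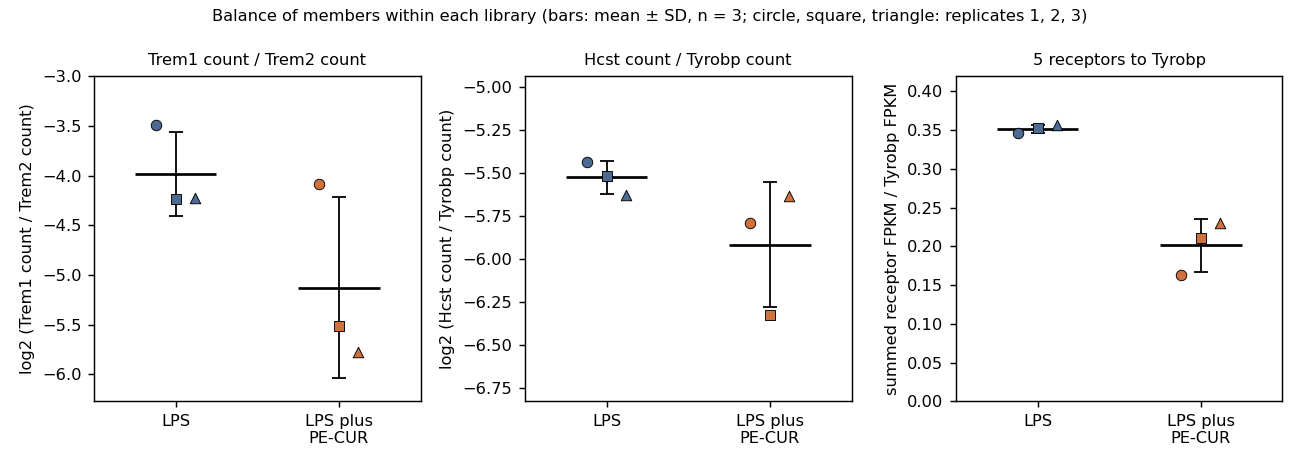
Ratios within each library: log2 of Trem1 over Trem2 counts, log2 of Hcst over Tyrobp counts (both axes are log2 and do not start at 0), and summed FPKM of the 5 receptors over Tyrobp FPKM. Lines and bars are mean ± SD (n = 3). PE-CUR replicate 1 overlaps the LPS group for Trem1 over Trem2, and the receptor sum per Tyrobp is apart in all 6 libraries.

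The genes most alike each member over the 6 libraries were taken from 9553 or 9554 genes with a mean of at least 5 CPM, by Pearson's r of log2 CPM. The 6 points share their 2 groups and their depth, so these values describe the pattern and carry no test. For Trem2 they were Tmem30a (r = 0.998), a subunit of lipid flippases, Gpnmb (0.994), a membrane glycoprotein of lipid-laden macrophages, and Cadm1 (0.993), an adhesion molecule. Gpnmb measured 2042, 2807 and 2444 CPM in the LPS libraries, by replicate number, and 890, 1384 and 1756 CPM in the PE-CUR libraries. Its libraries thus stood in the same order as those of Trem2, with PE-CUR replicate 1 the lowest. An r above 0.9 with Trem2 was reached by 6.52% of the genes compared.

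For Trem1 the most alike genes were C5ar1 (r = 0.999), the receptor of the complement fragment C5a, Brap (0.998) and Jdp2 (0.997), a repressor of the AP-1 family. C5ar1 measured 71.6, 66.8 and 65.8 CPM in LPS and 56.2, 51.5 and 50.8 CPM with PE-CUR replicates 1 to 3, again with replicate 1 highest in each group. For Treml4 they were Irf4 (0.999), an interferon regulatory factor of alternative activation, Cyfip2 (0.998) and Sgsm2 (0.998). For Treml2 they were Zfp36l2 (0.999), an mRNA decay protein, Arfgap1 (0.998) and Trim25 (0.998). For the members that did not pass they were Nyap1, Il18rap and Pxk for Trem3 (0.994, 0.985 and 0.980), Hmga1b, Lair1 and Zswim7 for Tyrobp (0.996, 0.988 and 0.984) and Apaf1, Kctd18 and Ptdss1 for Hcst (0.982, 0.978 and 0.973). An r above 0.9 was common for Treml4 (23.1% of genes compared), Trem1 (18.3%) and Treml2 (16.4%) and rare for Tyrobp (0.45%), Trem3 (0.387%) and Hcst (0.293%).

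Other receptors listed as partners of these adaptors or of the related Fcer1g were mostly lower among those tested. Of 22 such genes, a list that also holds the ITAM adaptor gene Fcer1g itself and its partner Oscar, 17 were in the table and 11 were tested. Of these 8 fell, 1 rose and 2 did not pass, which is 81.8% called beside 63.4% of all genes, with a median log2 fold change of -1.18 beside -0.03. Among the 8, Cd300e, Cd300ld3, Siglec15, Cd200r3 and Pilrb2 had a mean under 5 CPM over the 6 libraries. Pilrb2, at 0.689 CPM in LPS and 0.0317 CPM with PE-CUR, passed the filter on low counts only through LPS. The share called and the median carry that selection. With a filter at a mean of 1 CPM the number of the list that fell was 6. Clec5a, at 218 ± 24.1 CPM in LPS and 169 ± 64.6 CPM with PE-CUR, overlapped between the groups and did not pass (by edgeR, adjusted p = 0.397). Cd300ld and Cd300lb, activating receptors of the CD300 family, fell from 204 ± 9.05 to 90.5 ± 3.42 CPM and from 281 ± 16.3 to 131 ± 6.14 CPM. Plxna1, the plexin that joins TREM2 and DAP12 in a semaphorin receptor complex, fell from 168 ± 16.9 to 46.7 ± 9.40 CPM. Csf1r, the receptor of macrophage growth factor, whose signal also uses DAP12, rose from 865 ± 53.4 to 1201 ± 103 CPM.

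Of 30 tested genes that act downstream of the ITAM of DAP12 or the motif of DAP10, 15 fell, 6 rose and 9 did not pass (70% called, median log2 fold change -0.16). Src, a kinase that can phosphorylate ITAMs, fell from 33.6 ± 2.45 to 5.79 ± 0.379 CPM. The scaffold gene Lat, best known from T cells, fell from 25.1 ± 2.70 to 3.98 ± 1.12 CPM, and Pik3cb, a catalytic subunit of phosphatidylinositol 3-kinase, from 266 ± 11.1 to 117 ± 12.2 CPM. Syk, the kinase bound by the phosphorylated ITAM and named here for that role, fell from 244 to 170 CPM (log2 fold change -0.52, by edgeR, adjusted p = 3.71e-05). Lcp2, the scaffold SLP-76, rose from 319 ± 12.04 to 493 ± 7.42 CPM and Btk, a kinase that activates phospholipase C, from 50.5 ± 2.30 to 77.0 ± 2.32 CPM.

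Of 22 tested genes listed as limiting ITAM signalling, 8 rose, 8 fell and 6 did not pass (72.7% called, median log2 fold change -0.05). The list also holds the phosphatase genes Ptprc and Ptprj, whose products are not brakes alone. Ptprj is among the 8 that rose (log2 fold change 0.28), and Ptprc did not pass. Ptpn6, the phosphatase SHP-1, rose from 153 ± 4.63 to 439 ± 20.1 CPM, and the inhibitory lectin gene Clec12a rose from 8.41 ± 0.816 to 23.5 ± 1.37 CPM. The inhibitory receptor gene Cd300a fell from 140.5 ± 6.74 to 15.7 ± 0.435 CPM and the ubiquitin ligase gene Cblb from 33.1 ± 1.75 to 16.8 ± 0.590 CPM. Cd200r1 fell from 71.6 ± 4.86 to 36.6 ± 4.24 CPM and Sirpa, which reads CD47 on other cells, from 356 ± 22.5 to 215 ± 20.5 CPM.

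Of 10 genes of proteins reported to bind TREM1, TREM2 or TREML2 or the plexin complex, 9 were tested, and 4 fell, 2 rose and 3 did not pass (66.7% called, median log2 fold change -0.83). Lgals3, galectin-3, reported as a ligand of TREM2, fell from 1132 ± 100.2 to 503 ± 67.3 CPM, Clu, the lipoprotein clusterin, from 54.0 ± 7.37 to 30.5 ± 5.95 CPM, and Cd276, a reported ligand of TREML2, from 37.1 ± 3.16 to 6.93 ± 1.91 CPM. Hmgb1, a nuclear protein reported to act on TREM1 once released, rose from 20.8 ± 1.503 to 61.1 ± 7.72 CPM and Hspd1, a mitochondrial chaperone reported to bind TREM2, from 448 ± 18.5 to 994 ± 69.1 CPM. Apoe, the apolipoprotein bound by TREM2, stood at 11.5 and 9.17 CPM and did not pass (by edgeR, adjusted p = 0.557). Apoa1, which also belongs to the hepatocyte transcripts given above, did not pass either. It measured 1.70 to 3.40 CPM in LPS and 0, 0.0284 and 3.37 CPM in the PE-CUR libraries by replicate number, so its level there came from replicate 3. Without PE-CUR replicate 3 the number of ligand genes that fell was 6.

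Of 13 tested genes of receptor shedding, 7 fell, 2 rose and 4 did not pass (69.2% called, median log2 fold change -0.28). Adam10, a protease that cuts TREM2 from the cell surface, rose from 227 ± 13.0 to 393 ± 84.2 CPM (log2 fold change 0.79, by edgeR, adjusted p = 0.00495). The gamma-secretase genes Psen2, Aph1b and Aph1c, whose products act on the remaining stump, fell from 67.1 ± 2.37 to 41.8 ± 2.63, from 9.15 ± 0.444 to 5.39 ± 0.396 and from 26.0 ± 1.78 to 12.5 ± 0.688 CPM. Aph1b and Aph1c are close copies of each other, so the split of reads between them is uncertain. Ms4a6d, of a membrane protein family linked to release of soluble TREM2, fell from 94.9 ± 10.2 to 17.3 ± 2.77 CPM.

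Of 23 tested genes widely linked to TREM2-dependent lipid handling, 11 fell, 3 rose and 9 did not pass (60.9% called, median log2 fold change -0.34), and without PE-CUR replicate 1 the count that rose was 5. The lipid droplet gene Plin2 fell from 3355 ± 185 to 388 ± 42.3 CPM, the integrin gene Itgax from 15.9 ± 3.04 to 1.34 ± 0.106 CPM, Cd63, a tetraspanin of late endosomes, from 397 ± 19.2 to 222 ± 21.4 CPM, and Csf1, a macrophage growth factor, from 19.5 ± 2.37 to 7.20 ± 0.174 CPM. Fabp5, a fatty acid carrier, rose from 217 ± 25.8 to 419 ± 54.0 CPM, and Cst7, a protease inhibitor, from 17.6 ± 0.933 to 29.2 ± 2.19 CPM. Gpnmb, whose pattern over the libraries was close to that of Trem2, did not pass (log2 fold change -0.86, by edgeR, adjusted p = 0.0573).

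Of 19 tested inflammatory genes that TREM1 signalling is known to amplify or that regulate Trem1, 8 fell, 6 rose and 5 did not pass (73.7% called, median log2 fold change 0.01). Ptgs2, cyclooxygenase 2, had a log2 fold change of -1.85 and the neutrophil chemokine gene Cxcl2 one of -2.08, and Ccl4 and the NF-kB subunit gene Rela fell by 0.39 and 0.37 on the log2 scale. Tnf rose by 1.06 and the NF-kB subunit gene Nfkb1 by 0.47 on the log2 scale. Spi1, which codes for the myeloid factor PU.1, stood at 144 and 151 CPM and did not pass (by edgeR, adjusted p = 0.364). Il1a, Il1b and Il6, each with a mean under 5 CPM over the 6 libraries, fell, with log2 fold changes of -2.76, -1.24 and -2.93. Il6, at 0.245 CPM with PE-CUR, passed the filter on low counts only through LPS. Of the remaining called genes Cd14, Tlr2, Myd88 and Hif1a rose and Tlr4 fell. The list counts amplified genes and regulators together, so its split does not describe the amplified genes alone.

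**Figure D5:**
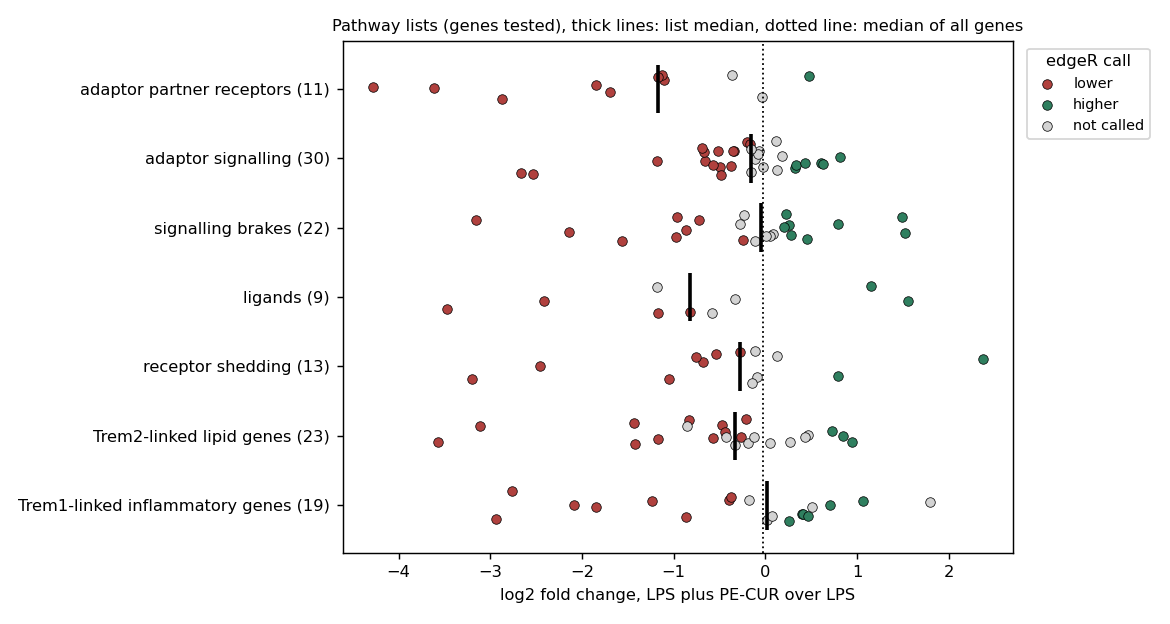
Log2 fold change of PE-CUR over LPS (x axis) for each tested gene of 7 pathway lists (rows, number tested in brackets), coloured by edgeR call. Thick lines are list medians and the dotted line is the median of all genes tested, -0.03. The receptors linked to these adaptors or to Fcer1g have the lowest median, -1.18, and the list of brakes on signalling splits into 8 higher and 8 lower.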

How the data were processed

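The authors deposited whole-number counts per gene symbol and, over those 21604 symbols in 6 libraries, FPKM. The submitters' processing notes name fastp, HTSeq, SAMtools, DESeq2 and the build mm10. No aligner, annotation or strand setting is given in the sources used here. Reads of overlapping antisense genes can therefore not be separated. The deposited FPKM values equal the counts divided by library total and 1 length per gene (100% of 105337 values above 0, relative tolerance 0.001).

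The main test was edgeR 4.0.16 under R 4.3.3 on the deposited counts: filterByExpr by group, TMM factors, robust quasi-likelihood fit with the group as its only term, all 6 libraries, two-sided p adjusted by Benjamini-Hochberg over 13014 genes. The SE is the log2 fold change over the root of F. Ratios within libraries were compared by exact permutation tests. Scripts were tested on simulated data. Alternatives used DESeq2 1.42.0 and limma 3.58.1, the latter on the counts (limma-voom), on log2(FPKM + 1) and on log2(FPKM + 0.1). Further ones used other scalings and filters, a replicate block and each library left out.

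Members, lists and alternatives were chosen with earlier results of these data known. Text names, from each list, passing genes with a mean of at least 5 CPM: up to 4 with the smallest p in the direction with more calls and up to 2 in the other. It also names all members, the other Trem cluster genes and the 3 genes most alike each member. Syk, Fcer1g, Apoe, Apoa1, Spi1 and genes adjoining the loci were added for their role or position after values were seen. Some other list genes outside this rule, such as Il6 and Clec5a, are named to show the make-up of a list. One gene of the signalling list that the rule selects is not reported here.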

Additional observations from a re-analysis of the deposited data

How the results depend on the processing

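Of the 7 members, Trem1, Treml2, Treml4 and Trem2 kept their direction in every alternative that gave a value. Trem1 and Treml2 passed in 17 of 17, Treml4 in 16 of 16 (its mean is under the filter of 1 CPM) and Trem2 in 11 of 17, with adjusted p from 7.24e-04 to 0.134. The number of members called lower was 3 or 4 in each. Trem3, Tyrobp and Hcst passed in 0 of 17. Leaving out 1 library gave Trem3 log2 values from -0.0544 (PE-CUR replicate 1 left out) to 0.249. The sign of Tyrobp turned with library size alone (-0.0254), a filter at 1 CPM (-0.00126), log2(FPKM + 1) with and without the filter (-0.0232 in both) and log2(FPKM + 0.1) (-0.0232). Fits on log2(FPKM + 1) understate changes of low genes by construction: Treml4 was at -0.85 there. As summed counts, not divided by length, the receptor to Tyrobp difference was -0.332 against -0.15 in FPKM.

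Among list counts, 5 brakes were higher with unfiltered log2(FPKM + 1), 4 shedding genes with no filter, and 5 Trem2-linked genes without PE-CUR replicate 1 (2 to 5 over the fits that left out a library); the cause was not tested. The same fits were run for 42 further genes, which are Treml1, Treml6, Nfya, Oard1 and the list genes the naming rule selects (1 of them not reported here), and all 714 values kept direction and call. They were not run for the genes most alike the members, Nfkbid or the genes added for their role or to show the make-up of a list. With the replicate number as a block, 3708 genes were higher and 3953 lower, and Trem2 had a log2 fold change of -0.89. Same-numbered libraries had deviations correlated at -0.102, -0.178 and -0.048, and 0 of 3 LPS libraries correlated best with their own number. Treml4, with 1 to 5 counts per library with PE-CUR, is limited by depth.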
